A study of Mus musculus with 9 samples.

Results

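The 9 genes described here code for enzymes of peroxisomal fatty acid oxidation, and were chosen by their symbols from a table of 32593 genes measured by RNA-seq in kidneys of mice treated with angiotensin II. They are Acox2, Acox3, Ehhadh, Hsd17b4, Acaa1a, Acaa1b, Hacl1, Phyh and Amacr, which take part in alpha- or beta-oxidation in the peroxisome. All 9 members passed the filter on low values, an FPKM (fragments divided by transcript length and by library size) of at least 1 in at least 3 libraries, as did 12507 genes in all. The members were selected on gene function with the difference between CDH16KO-AngII and AngII already known for these libraries, and no threshold on a value was applied. Values of that contrast are therefore a description. Where a count of calls is given for it, it stands beside the share over all genes and supports nothing.

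The 3 groups had 3 libraries each, and every mouse had received AngII, that is angiotensin II, the vasoconstrictor peptide of the renin system. The CDH16KO-AngII group carried CDH16 Cre+ with Tmem fl/fl. The GRPR-AngII group carried CDH16 Cre+ with GRPR fl/fl. The AngII group carried Tmem fl/fl without Cre. Cdh16 is a cadherin of kidney tubule epithelium, and its promoter is used to drive Cre in tubule cells. In which tubule segments or other kidney cells the floxed allele was deleted was not measured here. Age, sex, strain background and AngII dose are not stated. No label ties the libraries to separate animals, so a p-value here reflects only how these libraries vary. CDH16KO-AngII and AngII differ in Cre as well as in any deletion, GRPR-AngII and AngII differ in both Cre and the floxed allele, and CDH16KO-AngII and GRPR-AngII differ in the floxed allele.

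Peroxisomes shorten very long, branched and dicarboxylic fatty acids that mitochondria handle poorly, and they do so by beta-oxidation in rounds of oxidation, hydration, dehydrogenation and thiolytic release. Acyl-CoA oxidases start each round and pass electrons to oxygen, which gives hydrogen peroxide, and a bifunctional enzyme and a thiolase complete it. Fatty acids with a methyl group on the beta carbon, such as phytanic acid, first lose 1 carbon by alpha-oxidation, and a racemase then sets the methyl group in the form that the oxidases accept. In kidney these enzymes are abundant in the proximal tubule, and several of their genes are targets of the nuclear receptor PPARalpha in rodents.

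The members were well covered. Totals lay between 40731748 and 60449117 counts per library, and the members had 549 to 33720 counts. Levels between groups are given in CPM, counts relative to the library total with a TMM correction for library composition. The 37 genes coded by the mitochondrial genome took 23.4%, 16.1% and 26.4% of the counts in CDH16KO-AngII libraries 1, 2 and 3, 19.1% to 24.6% in GRPR-AngII and 17.2% to 21.5% in AngII. The floxed gene is written Tmem in the labels, while STING, coded by Sting1, appears in the series title. Sting1 stood at 2.15, 2.24 and 2.04 CPM in CDH16KO-AngII kidneys and at 2.90, 2.90 and 2.68 CPM in GRPR-AngII kidneys. In AngII kidneys it stood at 4.62, 1.77 and 5.33 CPM, so the CDH16KO-AngII libraries lay inside the AngII range. All CDH16KO-AngII libraries lay below all GRPR-AngII libraries, which held for 4.66% of tested genes. Grpr is not analysed here. Over the 9 libraries Xist stood at 0.112 to 0.531 CPM and the Y-linked gene Ddx3y at 24.7 to 32.7 CPM. Y-linked Eif2s3y stood at 47.3 to 69.7 CPM, Kdm5d at 16.4 to 21.4 CPM and Uty at 8.33 to 14.98 CPM, a male pattern throughout.

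The promoters of the members whose libraries stood apart most between groups are shown first, with that of Acaa1a, the close copy of Acaa1b. Each runs from 250 bases before to 50 bases after the RefSeq gene start (GRCm38.p6), 5′ to 3′ on the strand of the gene, and capitals mark CCAAT or GGGCGG on either strand, the letters of the CCAAT box and of the GC box. The Acox2 window lies at chr14:8258790-8259089, minus strand, and is the downstream of its 2 RefSeq starts. The Hacl1 window lies at chr14:31640916-31641215, minus strand, and the Ehhadh window at chr16:21787785-21788084, minus strand. The Acaa1b window lies at chr9:119157044-119157343, minus strand, and the Acaa1a window at chr9:119341044-119341343, plus strand.
Acox2: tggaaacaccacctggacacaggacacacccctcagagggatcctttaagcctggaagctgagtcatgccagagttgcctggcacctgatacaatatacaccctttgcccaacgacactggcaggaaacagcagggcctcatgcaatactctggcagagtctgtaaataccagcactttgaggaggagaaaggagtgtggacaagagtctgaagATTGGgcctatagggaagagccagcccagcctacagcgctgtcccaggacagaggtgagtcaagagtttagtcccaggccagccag
Hacl1: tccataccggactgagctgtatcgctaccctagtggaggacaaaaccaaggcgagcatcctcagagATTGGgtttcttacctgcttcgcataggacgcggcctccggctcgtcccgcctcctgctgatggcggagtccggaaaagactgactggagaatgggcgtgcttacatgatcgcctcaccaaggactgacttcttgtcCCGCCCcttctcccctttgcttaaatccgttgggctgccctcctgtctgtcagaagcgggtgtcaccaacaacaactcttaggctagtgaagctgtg
Ehhadh: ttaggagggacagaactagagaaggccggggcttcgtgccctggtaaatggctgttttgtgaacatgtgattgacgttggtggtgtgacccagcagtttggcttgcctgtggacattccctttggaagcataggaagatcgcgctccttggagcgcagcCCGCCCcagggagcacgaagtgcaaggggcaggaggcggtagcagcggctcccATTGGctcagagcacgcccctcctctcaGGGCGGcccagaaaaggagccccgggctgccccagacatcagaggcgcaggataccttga
Acaa1b: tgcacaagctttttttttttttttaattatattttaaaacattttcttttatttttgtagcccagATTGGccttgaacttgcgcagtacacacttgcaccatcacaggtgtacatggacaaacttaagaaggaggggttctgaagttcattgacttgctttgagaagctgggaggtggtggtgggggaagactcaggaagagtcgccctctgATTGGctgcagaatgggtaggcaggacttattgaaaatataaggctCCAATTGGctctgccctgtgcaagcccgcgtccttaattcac
Acaa1a: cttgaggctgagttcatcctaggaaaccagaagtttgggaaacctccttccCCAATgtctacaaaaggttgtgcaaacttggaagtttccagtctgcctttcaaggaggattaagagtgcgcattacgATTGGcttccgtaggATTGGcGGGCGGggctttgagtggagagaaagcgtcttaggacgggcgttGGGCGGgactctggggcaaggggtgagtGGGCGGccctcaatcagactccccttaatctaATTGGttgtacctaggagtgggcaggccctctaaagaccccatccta

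RefSeq windows were matched for 7 of the 9 members, all but Hsd17b4 and Amacr. CCAAT or its reverse complement ATTGG stood in 37.4% of 32851 promoter windows of this length. It occurred 4 times in each Acaa1 window, where in Acaa1b the last matches overlap on opposite strands, and 1 time each in the printed Acox2, Ehhadh and Hacl1 windows. GGGCGG or CCGCCC, present in 35.7% of windows, occurred 5 times in Acox3 (not printed), 3 times in Acaa1a, 2 times in Ehhadh and 1 time in Hacl1. Acox2, Phyh and Acaa1b had 0 such matches. The GC content was 43.7% in Acaa1b and 53.3% in Acaa1a. A direct repeat of AGGTCA with any 1 base between the copies, the letters of a PPARalpha response element in its strict form, stood in 0.0396% of all windows (either strand). It was found in none of the members' windows. The single AGGTCA, present in 16.3% of windows and contained in that repeat, was matched only in Phyh among the 7 members. These matches are descriptions of the letters in 1 window per start and say nothing of binding.

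Levels of different members were compared per transcript length, in FPKM. In CDH16KO-AngII kidneys Phyh was the highest, at 173 ± 49.7 FPKM, followed by Acaa1b at 91.5 ± 23.0 FPKM (SD, n = 3 here and below). Amacr came next at 58.0 ± 32.0 FPKM, above Ehhadh at 37.5 ± 19.5 FPKM. Acaa1a stood at 25.3 ± 5.26 FPKM, Hsd17b4 at 22.7 ± 7.93 FPKM and Acox3 at 14.05 ± 2.33 FPKM. Each neighbour in that order from Acaa1b down to Acox3 met the next within the SDs. Acox2 at 6.96 ± 1.61 FPKM and Hacl1 at 2.21 ± 0.299 FPKM lay apart below the rest.

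In GRPR-AngII kidneys Acaa1b at 191 ± 10.1 FPKM and Phyh at 179 ± 8.71 FPKM led, and their SDs met. Ehhadh followed at 108 ± 43.5 FPKM and Amacr at 48.4 ± 5.41 FPKM. Acaa1a at 29.5 ± 2.36 FPKM met Hsd17b4 at 28.5 ± 4.90 FPKM, and Acox2 at 15.9 ± 1.98 FPKM met Acox3 at 12.7 ± 2.999 FPKM. Hacl1 was the lowest at 3.94 ± 1.13 FPKM.

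In AngII kidneys the order resembled that of GRPR-AngII. Phyh at 240.4 ± 25.1 FPKM and Acaa1b at 197 ± 70.1 FPKM met within the SDs, and Ehhadh followed at 112 ± 4.81 FPKM. Amacr stood at 52.6 ± 7.08 FPKM, apart from both neighbours. Hsd17b4 at 34.9 ± 4.33 FPKM met Acaa1a at 28.1 ± 5.03 FPKM, Acox2 at 17.65 ± 3.01 FPKM met Acox3 at 15.9 ± 0.822 FPKM, and Hacl1 was again the lowest at 6.18 ± 1.26 FPKM.

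Among the oxidases, Acox2 acts on branched chains and bile acid intermediates (ENSMUSG00000021751, GRCm38 chr14:8225511-8259353, minus strand). Acox2 had 38.6, 29.4 and 25.2 CPM in CDH16KO-AngII libraries, 65.1, 77.5 and 74.6 CPM in GRPR-AngII libraries and 93.3, 76.7 and 61.4 CPM in AngII libraries. Every CDH16KO-AngII library lay below every other library. Its mean was 31.1 ± 6.87 CPM in CDH16KO-AngII kidneys, 72.4 ± 6.48 CPM in GRPR-AngII kidneys and 77.1 ± 15.96 CPM in AngII kidneys, and the fitted level in CDH16KO-AngII was 2.48-fold below AngII and 2.33-fold below GRPR-AngII.

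Acox3 is the second branched-chain oxidase, known in rodents as pristanoyl-CoA oxidase (ENSMUSG00000029098, chr5:35583040-35615352, plus strand). Acox3 had 166, 222 and 196 CPM in CDH16KO-AngII kidneys, 217, 127 and 205 CPM in GRPR-AngII kidneys and 219, 226 and 200 CPM in AngII kidneys. The groups overlapped, and GRPR-AngII library 2 was the lowest of all. Its means were 194.5 ± 27.7 CPM in CDH16KO-AngII kidneys, 183 ± 48.9 CPM in GRPR-AngII kidneys and 215 ± 13.6 CPM in AngII kidneys.

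**Figure D1:**
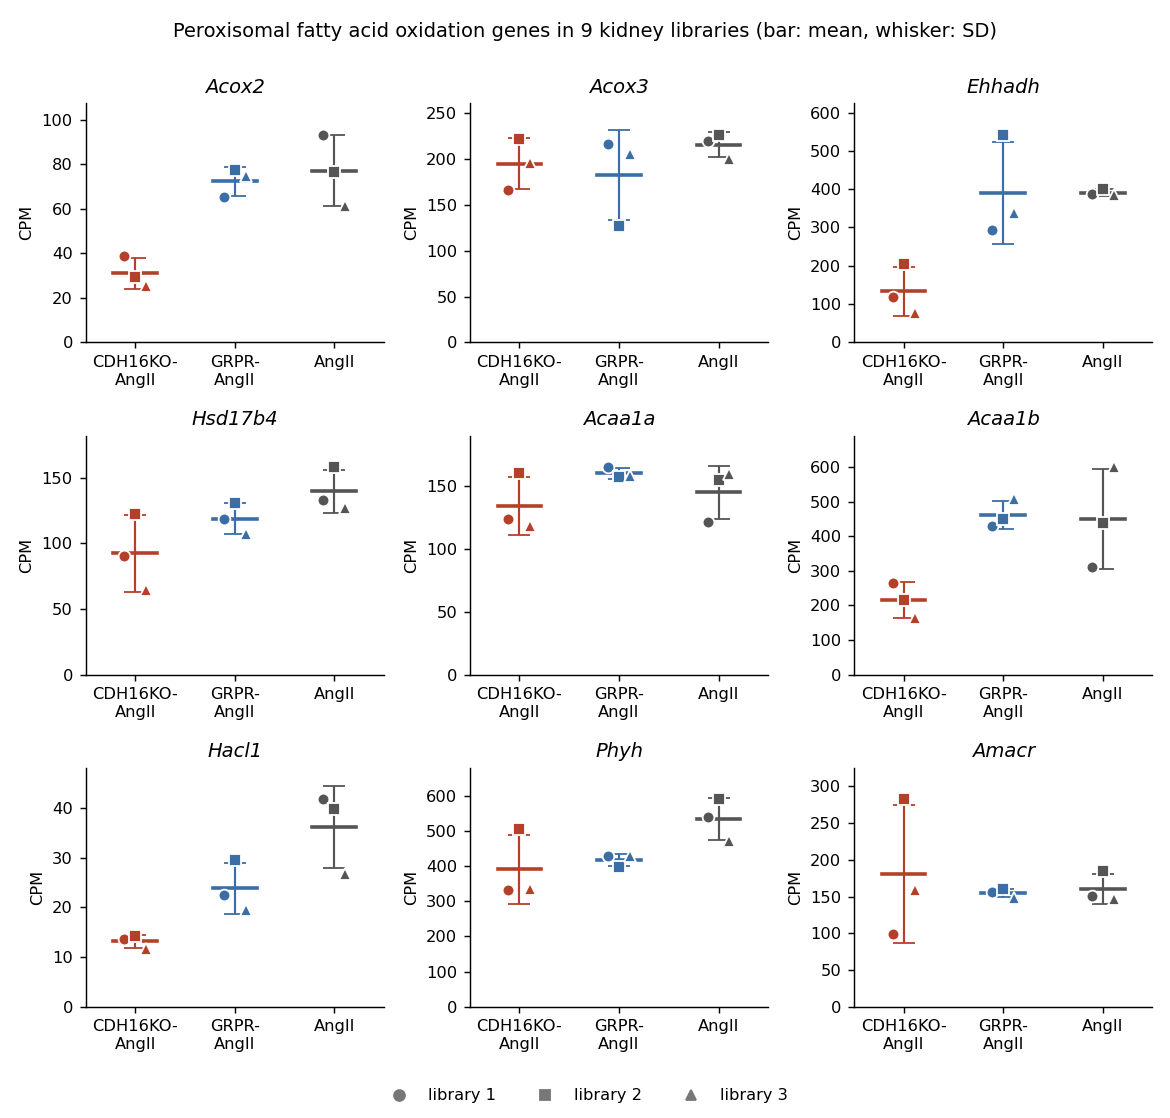
CPM of the 9 genes (vertical axes from 0) in each library of CDH16KO-AngII, GRPR-AngII and AngII; symbols mark libraries 1 to 3, the bar the mean and the whisker the SD. Acox2, Ehhadh, Hsd17b4, Acaa1b and Hacl1 have each CDH16KO-AngII library below each AngII library, while CDH16KO-AngII library 2 has the highest Amacr value at 283 CPM.

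The bifunctional enzymes hydrate and dehydrogenate the acyl-CoA. Ehhadh, the L-bifunctional enzyme, is known for dicarboxylic and straight chains and for strong induction by PPARalpha agonists in rodents (ENSMUSG00000022853, chr16:21761287-21787807, minus strand). Ehhadh had 118, 204 and 77.7 CPM in CDH16KO-AngII kidneys, 293, 542 and 337 CPM in GRPR-AngII kidneys and 387, 401 and 385 CPM in AngII kidneys. All CDH16KO-AngII libraries lay below all libraries of the other groups, and the GRPR-AngII libraries lay on both sides of the narrow AngII range. Its mean was 133 ± 64.5 CPM in CDH16KO-AngII kidneys, 391 ± 133 CPM in GRPR-AngII kidneys and 391 ± 8.42 CPM in AngII kidneys, and the fitted level in CDH16KO-AngII was 2.94-fold below either.

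Hsd17b4, the D-bifunctional enzyme, serves branched chains, very long chains and bile acid intermediates (ENSMUSG00000024507, chr18:50128201-50196269, plus strand). Hsd17b4 had 90.2, 122 and 64.4 CPM in CDH16KO-AngII kidneys, 119, 131 and 107 CPM in GRPR-AngII kidneys and 133, 158 and 127 CPM in AngII kidneys. CDH16KO-AngII library 2 lay just below the lowest AngII library and within the GRPR-AngII range. Its mean was 92.3 ± 29.0 CPM in CDH16KO-AngII kidneys, 119 ± 11.8 CPM in GRPR-AngII kidneys and 139.5 ± 16.7 CPM in AngII kidneys. The same-strand pseudogene Cd63-ps lies within Hsd17b4, at a mean of 60.8 CPM over the 9 libraries.

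The balance of these enzymes was set within each library, where the library total drops out. Ehhadh took 59.8%, 65.6% and 57.95% of the summed FPKM of Ehhadh and Hsd17b4 in CDH16KO-AngII, 73.8%, 82.6% and 78.2% in GRPR-AngII and 76.8%, 74.3% and 77.6% in AngII. Every CDH16KO-AngII share was below every other share. How often shares of other gene pairs separate in this way was not computed. Because the members were chosen with CDH16KO-AngII against AngII known, nothing is read from the separation. The mean share was 61.1% ± 3.97 in CDH16KO-AngII, 78.2% ± 4.40 in GRPR-AngII and 76.3% ± 1.75 in AngII.

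The thiolases release acetyl- or propionyl-CoA. Acaa1a and Acaa1b are neighbouring copies on chromosome 9 (Acaa1a, ENSMUSG00000036138, chr9:119339676-119350298, plus strand, and Acaa1b, ENSMUSG00000010651, chr9:119148023-119157093, minus strand). In rodents Acaa1b is the copy known for induction by peroxisome proliferators. Acaa1b matched Acaa1a over 84.5% of its longest transcript at 96.6% identity, so how the counting split reads between the copies is uncertain, and the sum of both is given below. Acaa1a also overlaps Slc22a14 and Myd88 on the opposite strand, at means of 1.01 and 18.0 CPM, and Acaa1b overlaps Dlec1 on the opposite strand by 224 bases, at 85.2 CPM. Whether the counting used strand is not stated.

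Acaa1b had 266, 216 and 164 CPM in CDH16KO-AngII kidneys, 428, 451 and 507 CPM in GRPR-AngII kidneys and 312, 437 and 601 CPM in AngII kidneys. All CDH16KO-AngII libraries lay below all others, and AngII was the group with the widest spread. The mean was 215 ± 51.2 CPM in CDH16KO-AngII kidneys, 462 ± 40.8 CPM in GRPR-AngII kidneys and 450.2 ± 145 CPM in AngII kidneys, so that the fitted level in CDH16KO-AngII was 2.15-fold below GRPR-AngII and 2.09-fold below AngII. Acaa1a had 124, 160 and 118 CPM in CDH16KO-AngII kidneys, 165, 157 and 158 CPM in GRPR-AngII kidneys and 121, 155 and 160 CPM in AngII kidneys, and its groups overlapped.

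The copies were then summed. Their summed level was 389.8, 377 and 282 CPM in CDH16KO-AngII kidneys, 594, 608 and 666 CPM in GRPR-AngII kidneys and 434, 592 and 761 CPM in AngII kidneys. The sum in CDH16KO-AngII thus also lay below all other libraries. Acaa1b took 82.9%, 75.2% and 75.7% of the summed FPKM of the copies in CDH16KO-AngII, 85.3%, 86.6% and 87.8% in GRPR-AngII and 85.3%, 86.4% and 89.4% in AngII. No CDH16KO-AngII share reached those of the other groups. How often sums or shares of other gene pairs separate like this was not computed, and nothing is read from it.

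**Figure D2:**
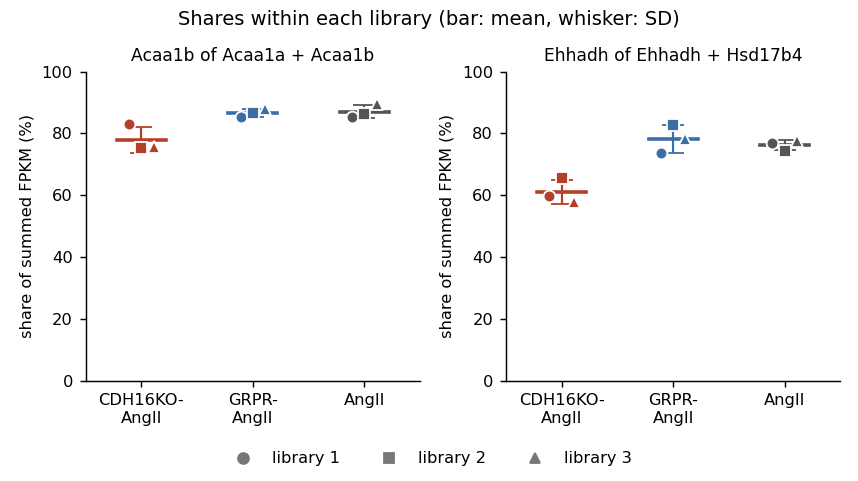
Share of summed FPKM within each library, in percent, for Acaa1b among the thiolase copies and Ehhadh among the bifunctional enzymes; points are libraries, bars means and whiskers SDs. The Ehhadh share averages 61.1% in CDH16KO-AngII, 78.2% in GRPR-AngII and 76.3% in AngII, and in both panels every CDH16KO-AngII library lies below all others. Shares of other gene pairs were not computed.

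Alpha-oxidation starts with Phyh, the phytanoyl-CoA hydroxylase (ENSMUSG00000026664, chr2:4919019-4938730, plus strand). Phyh had 333, 505 and 335 CPM in CDH16KO-AngII kidneys, 428, 397 and 429 CPM in GRPR-AngII kidneys and 539, 592 and 472 CPM in AngII kidneys. All GRPR-AngII libraries lay below all AngII libraries, and the CDH16KO-AngII libraries overlapped with both other groups through library 2. The mean was 391 ± 98.8 CPM in CDH16KO-AngII kidneys, 418 ± 18.1 CPM in GRPR-AngII kidneys and 534 ± 60.2 CPM in AngII kidneys.

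Hacl1, the hydroxyacyl-CoA lyase that cleaves the hydroxylated chain, was the least abundant member (ENSMUSG00000021884, chr14:31598730-31641257, minus strand). Hacl1 had 13.6, 14.3 and 11.7 CPM in CDH16KO-AngII kidneys, 22.6, 29.5 and 19.5 CPM in GRPR-AngII kidneys and 41.8, 39.9 and 26.6 CPM in AngII kidneys. The CDH16KO-AngII libraries lay together below all others, and GRPR-AngII overlapped with AngII through its library 2. The fitted level in CDH16KO-AngII was 1.81-fold below GRPR-AngII and 2.74-fold below AngII. Hacl1 shared 53.0% of its longest transcript with Gm49387, a same-strand gene of GENCODE M21 that is not among the deposited genes. Hacl1 also overlaps Btd on the opposite strand by 259 bases, at 85.7 CPM, so its reads may not all be assigned to it.

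Amacr, the racemase of branched chains and bile acid intermediates, had the widest spread of any member in CDH16KO-AngII for its level (ENSMUSG00000022244, chr15:10981756-10996626, plus strand). Amacr had 99.3, 283 and 159 CPM in CDH16KO-AngII kidneys, 157, 160 and 149 CPM in GRPR-AngII kidneys and 151, 184 and 147 CPM in AngII kidneys. CDH16KO-AngII library 1 was the lowest and library 2 the highest of all 9 libraries. The mean was 180.5 ± 93.7 CPM in CDH16KO-AngII kidneys, 155 ± 5.87 CPM in GRPR-AngII kidneys and 161 ± 20.5 CPM in AngII kidneys.

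CDH16KO-AngII was compared with AngII to ask what CDH16 Cre+ with the floxed Tmem allele goes with under AngII. The log2 fold change was negative in 8 of the 9 members, and its median over them was −0.60. For comparison, 48.1% of all 12507 tested genes were negative and their median was 0.01. In the edgeR fit across all genes 2 of the 9, Acox2 and Hacl1, were on the lower side with an adjusted p under 0.05, where 0.0640% of tested genes were. In 5 of the 9, Acox2, Ehhadh, Hsd17b4, Acaa1b and Hacl1, each CDH16KO-AngII library was lower than each AngII library, as for 5.50% of tested genes. Because the members were chosen with this contrast known, nothing is read from these counts and shares.

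Values within a pair of enzymes were unequal. For Ehhadh the log2 fold change was −1.56 (SE 0.33), and for Hsd17b4 −0.60 (SE 0.21). Acox2 had −1.31 (SE 0.20), and Acox3 had −0.15 (SE 0.20). Acaa1b stood at −1.06 (SE 0.25) and Acaa1a at −0.12 (SE 0.16). In alpha-oxidation the values were −1.45 (SE 0.21) for Hacl1 and −0.45 (SE 0.19) for Phyh, and Amacr had 0.17 (SE 0.30). Among the members, each pair of oxidases, bifunctional enzymes, thiolases and alpha-oxidation enzymes thus held 1 gene beyond −1 and 1 nearer to 0. The pairs were formed with this contrast known and leave out Amacr, and differences between members were not tested.

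Single libraries bore on these values. Over the 9 fits that left out 1 library, the log2 fold change of Acox2 ranged between −1.50 and −1.15 and that of Hacl1 between −1.63 and −1.34. Without CDH16KO-AngII library 2 the log2 fold change of Ehhadh was −2.00, and that of Amacr was −0.32. Hsd17b4 stood at −0.39 without CDH16KO-AngII library 3.

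**Figure D3:**
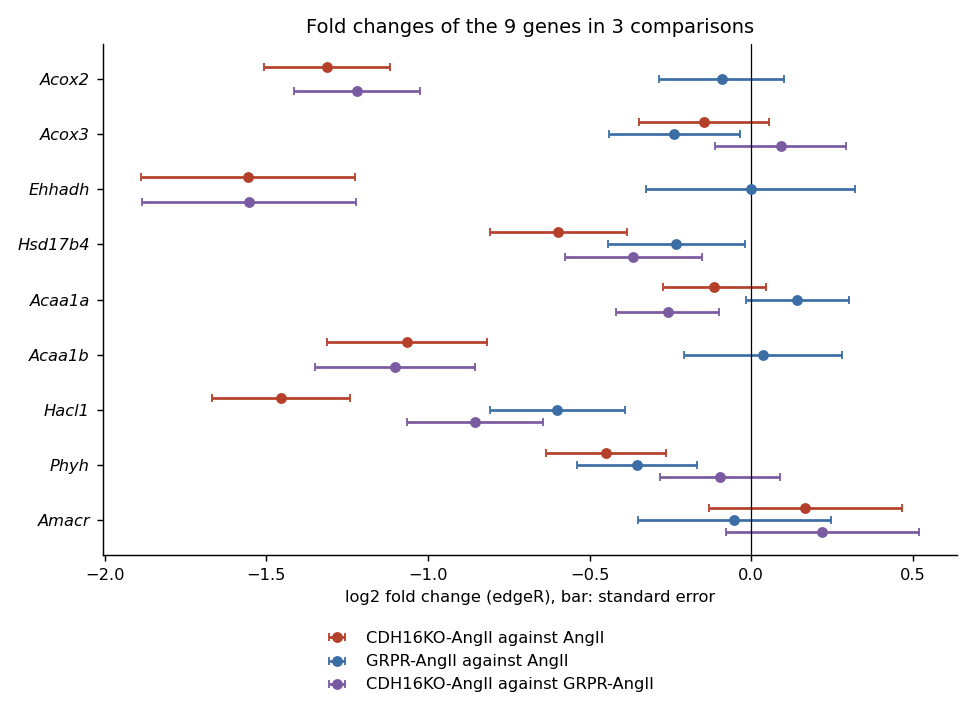
Log2 fold changes (horizontal axis, edgeR) of the 9 genes in 3 comparisons; points are fitted values and bars standard errors. Acox2, Ehhadh, Acaa1b and Hacl1 lie below −0.8 in both comparisons of CDH16KO-AngII, and the GRPR-AngII values of Acox2, Ehhadh and Acaa1b lie near 0.

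GRPR-AngII was compared with AngII, and the AngII libraries are shared with the contrast known when the members were chosen. No member was called, and no gene of the table was called by edgeR (0.00% of 12507, with 843 at an unadjusted p under 0.05), where DESeq2 called 45 and limma 0. The members' median log2 fold change was −0.09 with 7 of 9 negative, against −0.01 with 51.0% negative over all tested genes. Phyh was the only member whose GRPR-AngII libraries all lay below the AngII libraries, which held for 7.20% of tested genes. Its log2 fold change was −0.35 (SE 0.19, edgeR adjusted p = 0.736).

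Hacl1 had the most negative value of this comparison, −0.60 (SE 0.21, edgeR adjusted p = 0.703). Acox3 and Hsd17b4 followed at −0.24 (SE 0.20) and −0.23 (SE 0.21), and Acaa1a stood at 0.14 (SE 0.16). Acox2 was at −0.09 (SE 0.19), Acaa1b at 0.04 (SE 0.24) and Amacr at −0.05 (SE 0.30). Ehhadh was at −0.0014 with an SE of 0.32, a sign that other settings turned. The edgeR adjusted p of these 7 other genes lay between 0.802 and 0.999.

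CDH16KO-AngII was compared with GRPR-AngII, both carrying CDH16 Cre+. The CDH16KO-AngII libraries are those of the contrast known at the choice of the members, so these values are not independent of it. No member passed the threshold, where 0.0560% of tested genes were called lower. In 4 of the 9, Acox2, Ehhadh, Acaa1b and Hacl1, all CDH16KO-AngII libraries lay below all GRPR-AngII libraries, as for 4.66% of tested genes. Acox2 had a log2 fold change of −1.22 (SE 0.20, edgeR adjusted p = 0.051). It passed the threshold in 5 of 10 other settings, DESeq2 among them, and in 2 of the 9 fits without 1 library. The number of all genes called also moved with the setting, and DESeq2 called more than edgeR. Nothing is read from these passes. Ehhadh stood at −1.55 (SE 0.33, edgeR adjusted p = 0.147), Acaa1b at −1.10 (SE 0.25, edgeR adjusted p = 0.171) and Hacl1 at −0.86 (SE 0.21, edgeR adjusted p = 0.229).

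The other 5 lay nearer to 0 in that comparison. Hsd17b4 was at −0.36 (SE 0.21), Acaa1a at −0.26 (SE 0.16) and Phyh at −0.10 (SE 0.19). Acox3 stood at 0.09 (SE 0.20) and Amacr at 0.22 (SE 0.30). Their edgeR adjusted p lay between 0.911 and 0.998. Without CDH16KO-AngII library 2, Ehhadh was at −2.00 and Amacr at −0.26.

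The pathway around the members was examined through lists of other peroxisomal genes, which were drawn up with results of these data known. None of their genes was called in any comparison. Peroxisomal fatty acid handling (transporters, carnitine acyltransferases, thioesterases, auxiliary enzymes) had 27 of 31 genes tested, of which 25 were negative in CDH16KO-AngII against AngII, with a median of −0.43, and 12 were lower without overlap. Over all tested genes 48.1% were negative and 5.50% were lower without overlap in that comparison. Other peroxisomal enzymes had 14 of 20 negative and a median of −0.21. Peroxins, which import proteins and build the organelle, had 10 of 16 negative and a median of −0.09. In GRPR-AngII against AngII the medians of these 3 lists were −0.07, −0.06 and −0.05.

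Of single genes on these lists, Crot, the carnitine octanoyltransferase that exports shortened chains, had 159 ± 19.5 CPM in CDH16KO-AngII kidneys, 254 ± 33.4 CPM in GRPR-AngII kidneys and 247 ± 35.9 CPM in AngII kidneys (log2 fold change against AngII −0.64, SE 0.17). Decr2, a dienoyl-CoA reductase for unsaturated chains, had 29.96 ± 3.21 CPM in CDH16KO-AngII kidneys, 38.0 ± 1.62 CPM in GRPR-AngII kidneys and 44.5 ± 2.69 CPM in AngII kidneys. For both genes each CDH16KO-AngII library was lower than each AngII library, as for 5.50% of tested genes. For Decr2, but not Crot, each GRPR-AngII library was also lower than each AngII library, as for 7.20% of tested genes. Abcd3, a transporter of branched acyl-CoA, had a log2 fold change of −0.69 (SE 0.29) against AngII, the very-long-chain acyl-CoA synthetase Slc27a2 −0.26 (SE 0.18) and the thiolase and carrier gene Scp2 −0.17 (SE 0.23). Nudt7, a CoA diphosphatase named here after its values were seen, had 8.83 ± 1.75 CPM in CDH16KO-AngII kidneys, 15.3 ± 1.67 CPM in GRPR-AngII kidneys and 17.9 ± 1.40 CPM in AngII kidneys.

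Catalase, which removes the hydrogen peroxide of the oxidases, had 474 ± 156 CPM in CDH16KO-AngII kidneys, 651 ± 50.8 CPM in GRPR-AngII kidneys and 808 ± 181 CPM in AngII kidneys, and its groups overlapped. Import receptors overlapped between the groups. Pex5, which imports most matrix enzymes, had log2 fold changes of −0.01 in CDH16KO-AngII and 0.01 in GRPR-AngII against AngII, and Pex7, which imports thiolase and Phyh, had −0.34 and −0.31. Pex11a, a peroxin of organelle division, had 39.2 ± 6.10 CPM in CDH16KO-AngII kidneys, 55.1 ± 5.75 CPM in GRPR-AngII kidneys and 57.2 ± 8.50 CPM in AngII kidneys, with no overlap between CDH16KO-AngII and the others. Ppara had 5.98 ± 2.47 CPM in CDH16KO-AngII kidneys, 4.91 ± 0.181 CPM in GRPR-AngII kidneys and 7.04 ± 2.15 CPM in AngII kidneys, and its groups overlapped.

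**Figure D4:**
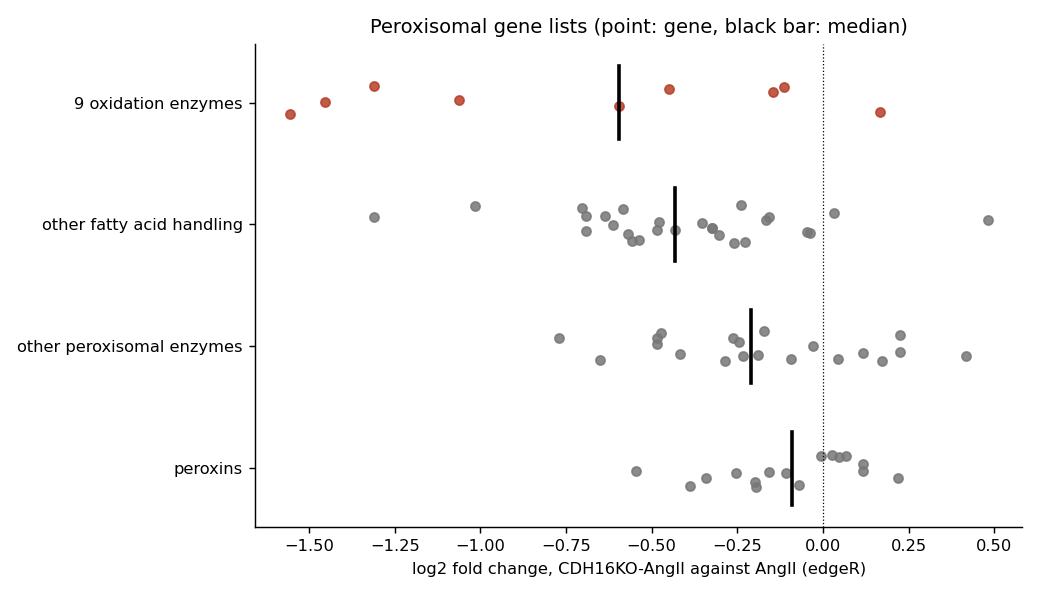
Log2 fold change in CDH16KO-AngII against AngII (horizontal axis, edgeR) of the tested genes of 4 peroxisomal lists; points are genes and black bars medians, and the vertical position within a list has no meaning. The medians are −0.60 for the 9 oxidation enzymes, −0.43 for other fatty acid handling, −0.21 for other peroxisomal enzymes and −0.09 for peroxins.

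The pattern over libraries was summarised by the mean of the members' centred log2(CPM + 1) values. It was −0.51, −0.12 and −0.70 in CDH16KO-AngII, 0.11, 0.20 and 0.12 in GRPR-AngII and 0.26, 0.40 and 0.23 in AngII. Hsd17b4 lay nearest to this mean profile, at a root mean square difference of 0.130 log2 units over the 9 libraries, and Ehhadh farthest at 0.533. Of 5145 other genes compared, the nearest were Eef1akmt1 (0.0875), Ech1 (0.1005), Stard4 (0.105), Aldh9a1 (0.117) and Ephx2 (0.120). Ech1 is a dienoyl-CoA isomerase on the fatty acid handling list, and Ephx2, an epoxide hydrolase, is on the list of other peroxisomal enzymes. These genes were picked for likeness, so no test is given.

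CDH16KO-AngII library 2 differed within its group. It had the highest level of the 3 CDH16KO-AngII libraries in 7 of the 9 members, all but Acox2 (29.4 CPM) and Acaa1b (216 CPM), in which it lay between the other two libraries. Acox2, Ehhadh, Hsd17b4, Acaa1b and Hacl1 were lower in it than in each AngII library, as in the other CDH16KO-AngII libraries. The same library had the lowest mitochondrial share, 16.1%. Its 14 markers of proximal tubule segments S1 and S2, none at 0, summed to 18762 CPM, against 13016 and 14306 CPM in CDH16KO-AngII libraries 1 and 3. The sums were 16425 to 18768 CPM in GRPR-AngII kidneys and 15914 to 19041 CPM in AngII kidneys, so the ranges of the groups overlapped. In CDH16KO-AngII against AngII, 10 of the 14 markers were negative with a median of −0.15. Without overlap, 2 of the 14 were lower and 2 higher in that comparison, where 688 and 832 of 12507 tested genes were. The 5 markers of the thick ascending limb, none at 0, summed to 4530, 2937 and 4891 CPM in CDH16KO-AngII libraries 1, 2 and 3. Their sums were 3615, 2778 and 2858 CPM in GRPR-AngII libraries and 4566, 4733 and 2929 CPM in AngII libraries. Of these 5, 2 were negative in CDH16KO-AngII against AngII (median 0.23) and 0 in CDH16KO-AngII against GRPR-AngII (median 0.44). In bulk kidney RNA, fewer proximal tubule cells and less RNA per cell cannot be told apart.

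**Figure D5:**
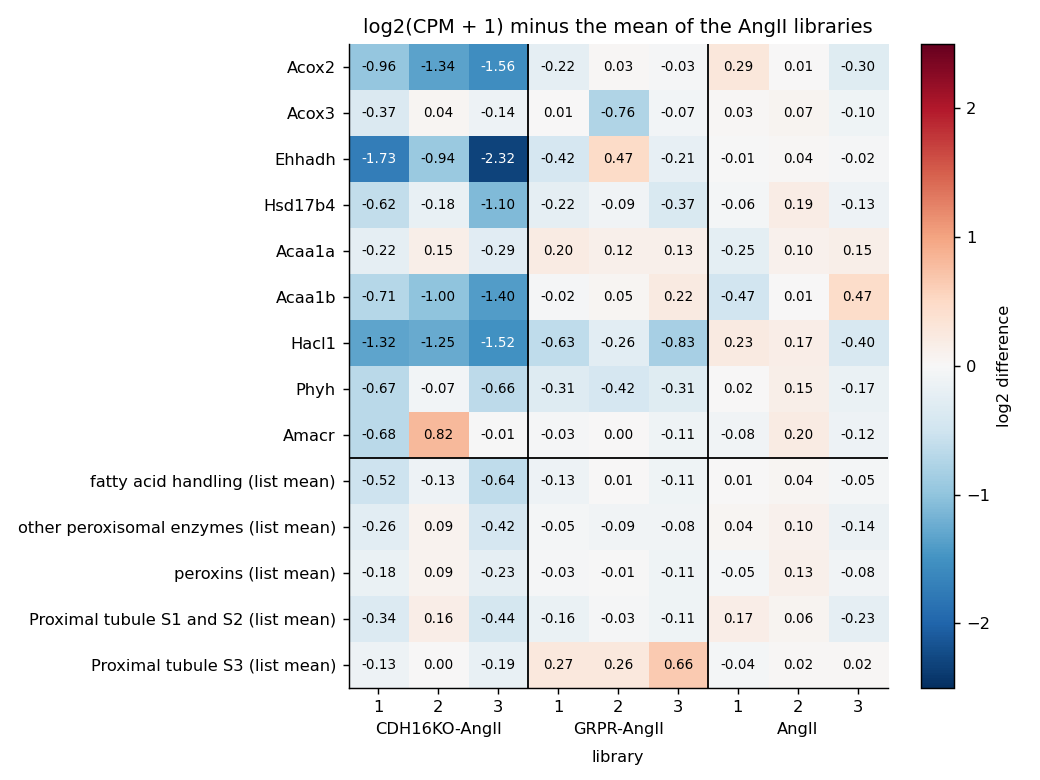
Difference of log2(CPM + 1) from the mean of the AngII libraries (colour and printed value) for each of the 9 genes and for the means of 5 gene lists, by library. Acox2, Ehhadh, Hsd17b4, Acaa1b and Hacl1 are lower in each CDH16KO-AngII library than in each AngII library, while Amacr is 0.82 above the AngII mean in CDH16KO-AngII library 2 and 0.68 below it in library 1.

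The members were also set against the mean log2 level of those 14 markers in the same library, a ratio chosen after seeing the data. Relative to the markers, Ehhadh was lower by 1.45 log2 units in CDH16KO-AngII than in AngII, Hacl1 by 1.16, Acox2 by 1.08, Hsd17b4 by 0.42 and Phyh by 0.26, each without overlap between the groups. On this scale 2.18% of tested genes were lower without overlap. Acaa1b was lower by 0.83 with overlap. Acox3, Acaa1a and Amacr stood at 0.05, 0.09 and 0.25 with overlap. In GRPR-AngII against AngII, Hacl1 and Phyh were lower by 0.47 and 0.25 without overlap, as were 3.43% of tested genes. In CPM the fitted log2 fold change of Hacl1 was −0.60, with overlap.

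Markers of the S3 segment, 10 genes with none at 0, summed to 4164 to 6531 CPM in CDH16KO-AngII kidneys, 5120 to 6078 CPM in GRPR-AngII kidneys and 5173 to 5306 CPM in AngII kidneys. Their mean log2(CPM + 1) was 7.35 to 7.54 in CDH16KO-AngII kidneys, 7.80 to 8.19 in GRPR-AngII kidneys and 7.49 to 7.56 in AngII kidneys. Of these 10 markers, 5 were negative in CDH16KO-AngII against AngII (median −0.10), 2 in GRPR-AngII against AngII (median 0.35) and 7 in CDH16KO-AngII against GRPR-AngII (median −0.48). Without overlap, 4 were higher and 1 lower in GRPR-AngII against AngII, where 857 and 900 of 12507 tested genes were. Slc27a2, 1 of the 10, is also on the list of fatty acid handling.

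Markers of the distal convoluted tubule, 5 genes with none at 0, had a mean log2(CPM + 1) of 6.75 to 7.17 in CDH16KO-AngII kidneys, 6.80 to 6.94 in GRPR-AngII kidneys and 6.36 to 6.54 in AngII kidneys. None of the 5 was negative against AngII in either Cre group, with medians of 0.35 in CDH16KO-AngII and 0.29 in GRPR-AngII. In each group 2 of the 5 were higher without overlap, where 832 and 857 of 12507 tested genes were. Their sums were 1240 to 1663 CPM in CDH16KO-AngII kidneys, 1277 to 1736 CPM in GRPR-AngII kidneys and 1180 to 1332 CPM in AngII kidneys. The 6 hepatocyte markers in the table, a check for RNA of another organ rich in peroxisomes, summed to 253 to 344 CPM in CDH16KO-AngII kidneys, 141 to 360 CPM in GRPR-AngII kidneys and 168 to 192 CPM in AngII kidneys. Ttr made up 120, 274 and 245 CPM of that sum in the CDH16KO-AngII libraries. Ttr had 119, 77.2 and 230 CPM in GRPR-AngII libraries and 60.9, 99.9 and 102 CPM in AngII libraries. Of the 5 tested hepatocyte markers, 2 were negative in CDH16KO-AngII against AngII, with a median of 0.82. Without overlap 2 were higher, where 832 of 12507 tested genes were. In GRPR-AngII against AngII the median was 0.70, with 2 of 5 negative. The defining hepatocyte gene Cyp3a11 stood at 0 to 0.339 CPM over the 9 libraries, and Alb at 3.72 to 10.2 CPM. Apob stood at 25.5 to 72.9 CPM, Serpina1a at 14.0 to 73.5 CPM and Apoa1 at 0.410 to 3.45 CPM. The 5 adipocyte markers in the table summed to 28.7 to 67.4 CPM, with 2 or 3 of them at 0 in each library. Fabp4 made up 28.3 to 67.3 CPM of that sum. Adipoq stood at 0 to 0.0564 CPM, Plin1 at 0 to 0.0851 CPM, Cidec at 0 to 0.340 CPM and Retn at 0 to 0.335 CPM. The part of these cell types, of the mitochondrial share and of CDH16KO-AngII library 2 in the members' values was not tested beyond these values.

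The neighbours of the members on the chromosome were examined last. Among tested genes within 1 Mb and for CDH16KO-AngII against AngII, Acox2 had 8 with a median log2 fold change of −0.03, Hacl1 had 30 with −0.01, Ehhadh 11 with 0.01 and Acaa1b 20 with 0.12. No neighbour of any member was called in any comparison.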

How the data were processed

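Kidney RNA of 9 libraries was profiled by RNA-seq. A Qiagen kit was used for extraction and a SMARTER mRNA-Seq kit for the libraries, per the labels' protocols. The builds GRCm38 and mm10 come from the submitters' processing notes. Aligner, counting program and use of strand: not given in the sources used here. The FPKM values were computed and deposited by the authors, per the file headers. The counts deposited by the authors were whole numbers in which the value 4 was more frequent than 3 and 5 in every library (799 genes against 631 and 318 in AngII library 1). How the authors made these deposited values is not stated, and they were taken here for rounded expected counts of reads, while counts divided by 4 were an alternative chosen after seeing the data. Members, gene lists and the rule for named genes (the 9 members, fixed genes of the lists, any other list gene called, and the 5 genes nearest in profile) were chosen with earlier results of these data known. 1 of the fixed genes of the lists is not reported here.

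The counts were fitted for all 12507 genes past the filter with the quasi-likelihood test of edgeR 4.0.16 (R 4.3.3, TMM, 1 coefficient per group, no block), and a Benjamini-Hochberg adjusted p under 0.05 over all of them was a call. Each SE is the absolute log2 fold change over the root of its F. DESeq2 1.42.0 and limma 3.58.1 on log2(FPKM + 1) or log2(FPKM + 0.1) were alternatives, with other scalings, filters, a replicate block, fits of 2 groups and fits without 1 library. Libraries of the same group differed by a chi-square of 74.2 to 366 per gene, and none was treated as a copy. BLAST+ 2.17.0 against GENCODE M21 transcripts found shared sequence, at 95% identity over at least 10% of the longest transcript. Gene coordinates are as deposited, on GRCm38. Promoters are from RefSeq. Python 3.11.15 with matplotlib 3.10.9 drew the figures.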

Additional observations from a re-analysis of the deposited data

How the results depend on the processing

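The number of genes called in CDH16KO-AngII against AngII was 21 and the number in CDH16KO-AngII against GRPR-AngII was 18. DESeq2 called 210 and 175 in these comparisons, and 45 in GRPR-AngII against AngII, where edgeR called 0. With no filter 41 genes were called in CDH16KO-AngII against GRPR-AngII, and 9 in the fit of those 2 groups only. Leaving out 1 library gave 0 (without AngII library 1) to 42 (without CDH16KO-AngII library 1) calls in CDH16KO-AngII against AngII. It gave 0 to 2 (without AngII library 3) in GRPR-AngII against AngII and 0 (without GRPR-AngII library 1) to 50 (without CDH16KO-AngII library 1) in CDH16KO-AngII against GRPR-AngII. The cause was not tested.

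Over 513 values of the members under alternatives, 465 kept direction and side of the threshold, 15 lost a call, 14 gained one and 19 turned direction. The lost calls were of Acox2 and Hacl1 in CDH16KO-AngII against AngII: Acox2 in the fit of 2 groups and Hacl1 with limma, and both without single libraries. Of the 9 fits without 1 library, Acox2 stayed past the threshold in 2 (without CDH16KO-AngII library 1 or AngII library 3) and Hacl1 in 4 (without CDH16KO-AngII library 2, GRPR-AngII library 2 or 3, or AngII library 3), which describes a contrast known when the members were chosen. Ehhadh in GRPR-AngII against AngII, at −0.0014, turned to 0.0004 with RLE scaling or DESeq2, 0.0043 with the filter at an FPKM of 0.1, 0.0046 with no filter and 0.0009 with 2 groups. Without 1 library it ranged from −0.31 to 0.17, Acox2 from −0.23 to 0.068, Acaa1b from −0.17 to 0.30 and Amacr from −0.11 to 0.057. Amacr ranged from −0.32 to 0.46 in CDH16KO-AngII against AngII and from −0.26 to 0.51 against GRPR-AngII, where Acox3 ranged from −0.11 to 0.23 and Phyh from −0.32 to 0.0040.

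Correlations of deviations between libraries of the same number were 0.138 to 0.319 for numbers 2 and 3, and 0.091, −0.041 and −0.126 for number 1. Libraries numbered 2 and 3 in different groups had −0.346 to −0.116. Not every same-numbered pair was over 0.1 and not every library correlated best with its own number (GRPR-AngII library 2 with AngII library 1 had 0.237), so the numbers were not taken as pairs. With the replicate number as a block, 26, 0 and 13 genes were called in the 3 comparisons as ordered in the text, and no call of a member was lost. Genes at an unadjusted edgeR p under 0.05 numbered 1642 with the block and 1057 without it in CDH16KO-AngII against AngII. They numbered 1270 and 843 in GRPR-AngII against AngII. What a shared number means is not stated in the labels.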
